A study of Mus musculus with 2 samples.

Results

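The 37 interferon-stimulated genes described here were chosen by name: each row of the count matrices whose gene symbol is on the list belongs to the set. A row was found for 36 of them among 32285 genes, and Mx1 was not analysed here. Their transcripts were counted in 2 single-cell RNA-seq libraries of mouse dorsal meninges, the membranes that cover the brain. The TBI library came from 5 mice that had received a mild closed-skull hit from an impactor 1 week earlier, and the Sham library from 5 mice that had gone through the procedure without the hit. All were male C57BL/6 mice (C57BL/6J in the study's methods), aged 10 weeks in one field of the sample records and 10 to 12 weeks in another. The labels name no engineered allele in either group, both groups were anaesthetised, and the meninges of the 5 mice in each group were pooled before the cells were sorted. Each condition is therefore 1 library, so no difference between Sham and TBI below has a replicate, and no p-value is given. Intervals in parentheses are 95% intervals that cover counting error only.

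Interferons are cytokines that warn cells of viruses and other danger. Type I interferons act through the receptor made of Ifnar1 and Ifnar2, and interferon gamma through Ifngr1 and Ifngr2. Their signal runs through JAK kinases to transcription factors that bind 2 short DNA elements: the interferon-stimulated response element (ISRE), used mainly after type I interferon, and the gamma-activated site (GAS), used mainly after interferon gamma. The genes switched on this way degrade or sequester viral RNA, sense nucleic acids, tag proteins with the ubiquitin-like ISG15, hold virus particles at the membrane and attack the vacuoles of intracellular microbes. Many are also expressed at a lower level without infection.

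The promoters are shown first because they can hold the letters of these elements. RefSeq promoter windows (GRCm38.p6) were at hand for 28 of the 36 genes, and the 250 bases before each start were searched on both strands. The ISRE was searched as GAAANNGAAA or its reverse complement TTTCNNTTTC, and the GAS as TTCNNNGAA, which is its own reverse complement. Letters of an ISRE were found in 16 of the 28 genes (57.1%), against 3.46% of all 27025 genes with a window. Letters of a GAS were found in 5 of them (17.9%), against 8.13% of all genes. A match is a description of the letters, not a shown binding site, and matches can overlap each other. The 7 promoters below are those of the IFIT genes, Isg15, Rsad2, Igtp and Xaf1, on which many of the later values turn, 150 bases each from the RefSeq table, written 5′ to 3′ towards the start of the gene, with matched letters in capitals. In Isg15 the capitals hold 3 overlapping ISRE matches and in Igtp an ISRE and a GAS match. The windows of Ifit2 and Xaf1 held no ISRE letters, and their stretches are printed without capitals, since the 1 GAS match of Ifit2 lies outside the printed bases.
Isg15, chr4:156200819-156200968, reverse strand: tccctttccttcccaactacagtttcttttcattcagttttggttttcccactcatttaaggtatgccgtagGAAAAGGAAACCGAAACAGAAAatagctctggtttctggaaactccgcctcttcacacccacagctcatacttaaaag
Ifit1, chr19:34640721-34640870, forward strand: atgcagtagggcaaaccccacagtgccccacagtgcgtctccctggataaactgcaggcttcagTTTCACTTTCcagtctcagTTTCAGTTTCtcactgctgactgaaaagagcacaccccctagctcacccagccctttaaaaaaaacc
Ifit2, chr19:34550544-34550693, forward strand: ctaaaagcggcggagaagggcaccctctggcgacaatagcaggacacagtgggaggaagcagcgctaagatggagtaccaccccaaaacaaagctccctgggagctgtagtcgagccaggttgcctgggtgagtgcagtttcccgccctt
Ifit3, chr19:34583379-34583528, forward strand: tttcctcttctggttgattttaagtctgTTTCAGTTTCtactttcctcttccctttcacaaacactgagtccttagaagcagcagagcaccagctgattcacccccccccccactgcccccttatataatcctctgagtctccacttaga
Rsad2, chr12:26456453-26456602, reverse strand: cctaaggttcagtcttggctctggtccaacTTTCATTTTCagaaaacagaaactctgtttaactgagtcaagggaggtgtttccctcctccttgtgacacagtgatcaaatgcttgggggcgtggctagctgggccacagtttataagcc
Igtp, chr11:58199406-58199555, forward strand: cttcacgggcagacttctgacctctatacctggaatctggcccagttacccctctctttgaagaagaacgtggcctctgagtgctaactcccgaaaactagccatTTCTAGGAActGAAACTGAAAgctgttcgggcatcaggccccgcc
Xaf1, chr11:72301479-72301628, forward strand: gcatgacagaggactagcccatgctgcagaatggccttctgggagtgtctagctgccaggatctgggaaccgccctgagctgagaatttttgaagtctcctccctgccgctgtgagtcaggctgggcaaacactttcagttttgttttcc

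After the filters, 2043 Sham cells with 7866611 UMIs and 3773 TBI cells with 13940740 UMIs remained, with medians of 2764 and 2663 UMIs per cell. A UMI (unique molecular identifier) marks 1 captured transcript near its 3′ end, so counts need no correction for gene length, and the unit CPM is UMIs of a gene per 1000000 UMIs of its class. The hemoglobin limit removed unequal shares, 289 of 2332 Sham and 174 of 3947 TBI cells that had passed the other limits. Of all barcodes, 22.4% of Sham and 9.91% of TBI exceeded it. The libraries shared 20 barcode sequences, 14 of them among kept cells. Cells were clustered without any interferon gene, and clusters were named from marker genes with the ending -like. Of 237 markers, 195 were highest in their own class: 18 of 20 in macrophage-like, 8 of 15 in endothelial-like, 6 of 13 in dendritic-like, 7 of 14 in T-like and 6 of 10 in monocyte-like cells. Levels are compared over the 16 classes with at least 30 cells in each library, and members are counted in the 8 with at least 75. The largest are macrophage-like cells (355 Sham and 775 TBI cells), a kind that patrols the brain's borders, and endothelial-like cells (258 and 463). Class sums run from 64481 UMIs (pineal-like, Sham) to 3514868 (macrophage-like, TBI), where 3 counts are worth 46.5 and 0.854 CPM.

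Expression was broad, and the order of classes differed from gene to gene. In Sham, 8 of the 36 genes had their highest value in an unnamed cluster led by Sema3g, 7 in endothelial-like cells, 6 in Schwann-like cells, 5 in monocyte-like cells and 4 in macrophage-like cells. In TBI the monocyte-like cells led for 13 genes and the Sema3g-led cluster for 10. The class with the highest level was the same in both libraries for 15 of 36 genes. The Sema3g-led cluster, with Gkn3, Gja5 and Sox17 among its leading genes, held too few listed markers for a name. Whether its cells are a kind apart from endothelial-like cells was not tested. Herc6 and Ifi35 were highest in endothelial-like cells in Sham and in this cluster in TBI, which counts here as a change of class. Choroid plexus-like or pineal-like cells were lowest for 22 genes in Sham and 17 in TBI. These counts were not made over all genes, so they have no background share. The Sema3g-led, Schwann-like and pineal-like sums of Sham are small, at 70403, 72508 and 64481 UMIs. There 3 counts are worth 41.4 to 46.5 CPM, so a rare gene can rank highest or lowest through few counts. With each gene set to the same mean and spread, the mean z-score over the set was highest in monocyte-like cells (0.89 in Sham, 1.18 in TBI) and lowest in choroid plexus-like cells (-1.63 and -1.45).

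**Figure D1:**
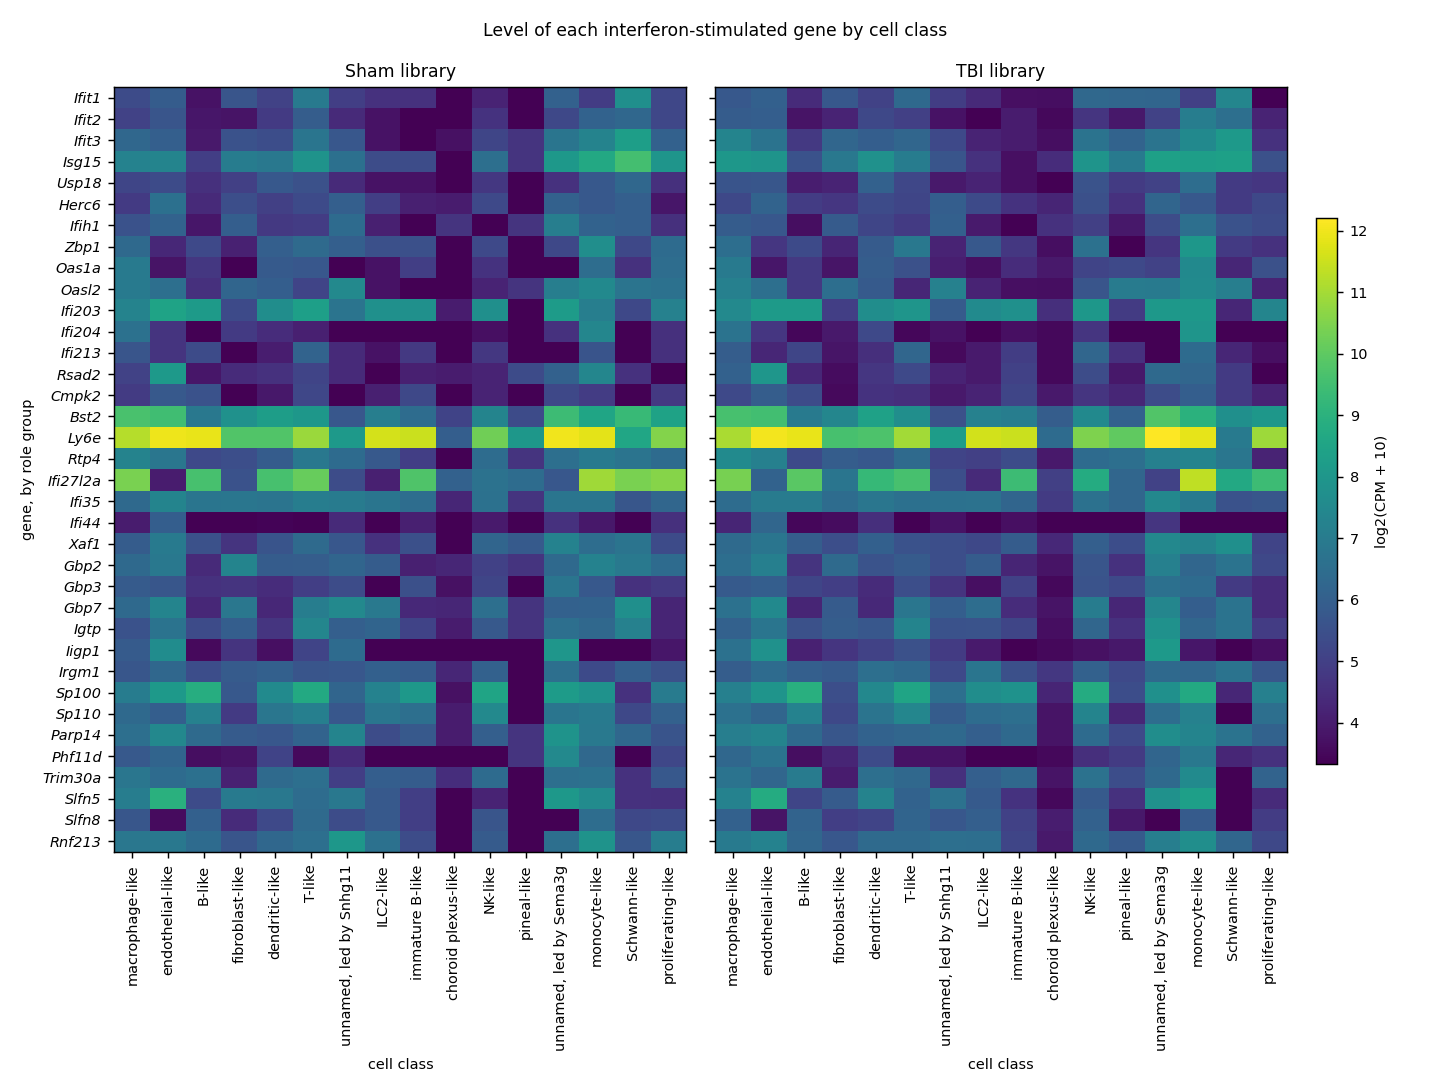
Level of the 36 genes (rows, by role group) in the 16 classes (columns), as log2(CPM + 10) in the Sham library (left) and the TBI library (right). Ly6e is the brightest row in most classes, Ifi27l2a is dark in endothelial-like and ILC2-like cells of Sham, and the choroid plexus-like column is dark in both libraries.

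The IFIT proteins bind foreign RNA and keep it from being translated. Their genes sit in a row on chromosome 19 of GRCm38: Ifit2 (ENSMUSG00000045932, chromosome 19, 34550694 to 34576419), Ifit3 (ENSMUSG00000074896, chromosome 19, 34583531 to 34588731) and Ifit1 (ENSMUSG00000034459, chromosome 19, 34640871 to 34650009). In macrophage-like cells Ifit3 had 68.9 (Sham) and 149 CPM (TBI), with counting intervals of 56.3 to 83.5 and 137 to 162 CPM that do not overlap, a log2 ratio of 1.11 (0.81 to 1.43). Ifit2 had 23.9 (Sham, 36 UMIs) and 50.4 CPM (TBI, 177 UMIs) and a log2 ratio of 1.06 (0.55 to 1.64), and Ifit1 31.1 (Sham, 47 UMIs) and 45.0 CPM (TBI, 158 UMIs) and a log2 ratio of 0.52 (0.051 to 1.03). All 3 were higher in the TBI library in these cells, Ifit1 by the least. Its ratio became -0.28 with cells thinned to 1000 UMIs, a step that leaves out shallower cells. Only 2.73% of 256 Sham and 2.59% of 656 TBI cells then held Ifit1, so that value rests on few cells. T-like cells showed the opposite order. Ifit2 had 51.7 (Sham, 29 UMIs) and 22.3 CPM (TBI, 19 UMIs) and a log2 ratio of -1.20 (-2.13 to -0.33) in them, Ifit1 116 (Sham, 65 UMIs) and 72.6 CPM (TBI, 62 UMIs) and a log2 ratio of -0.67 (-1.20 to -0.15), and Ifit3 99.8 (Sham, 56 UMIs) and 65.6 CPM (TBI, 56 UMIs) and a log2 ratio of -0.61 (-1.17 to -0.045). Most of these T-like UMIs lay in few cells: 3 cells held 65.5% of Ifit2 in Sham, and without the 5% of cells richest in members the Ifit3 ratio was 0.34. In endothelial-like cells Ifit3 was higher in TBI, with 54.1 (Sham, 28 UMIs) and 95.3 CPM (TBI, 103 UMIs) and a log2 ratio of 0.80 (0.20 to 1.47), while the intervals of Ifit1 and Ifit2 included 0. B-like, ILC2-like and immature B-like cells held few IFIT transcripts, at most 17.5 CPM in either library. Ifit3b, a near copy of Ifit3, was also higher in macrophage-like cells of TBI, with 15.2 (Sham) and 38.7 CPM (TBI) and a log2 ratio of 1.32 (0.70 to 2.05).

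Isg15 (ENSMUSG00000035692, chromosome 4, 156199424 to 156200818) encodes the ubiquitin-like tag, Herc6 (ENSMUSG00000029798, chromosome 6, 57581000 to 57664632) the ligase that attaches it in mice and Usp18 (ENSMUSG00000030107, chromosome 6, 121245906 to 121270917) the protease that removes it and also restrains the type I receptor. Isg15 had 144 (Sham) and 249.5 CPM (TBI) in macrophage-like cells, with intervals of 126 to 165 and 233 to 267 CPM that do not overlap, and a log2 ratio of 0.79 (0.57 to 1.01). It was higher in TBI in dendritic-like cells too, with 108 (Sham, 156 UMIs) and 216 CPM (TBI, 369 UMIs) and a log2 ratio of 0.99 (0.72 to 1.27), and in endothelial-like cells, with 149 (Sham, 77 UMIs) and 229 CPM (TBI, 248 UMIs) and a log2 ratio of 0.62 (0.25 to 1.01). In T-like cells it was lower in TBI, with 225 (Sham, 126 UMIs) and 122 CPM (TBI, 104 UMIs) and a log2 ratio of -0.88 (-1.27 to -0.50), a ratio that came to -0.23 with every cell weighted equally. The macrophage-like ratio kept its direction but came to 0.45 when the interferon genes were allowed to shape the clusters. Usp18 was higher in macrophage-like cells as well, with 26.5 (Sham, 40 UMIs) and 39.0 CPM (TBI, 137 UMIs) and a log2 ratio of 0.54 (0.039 to 1.10). Herc6 had its highest value in endothelial-like cells of Sham and in the Sema3g-led cluster of TBI. For this ligase the interval included 0 in macrophage-like cells, with 18.6 (Sham, 28 UMIs) and 28.2 CPM (TBI, 99 UMIs) and a log2 ratio of 0.58 (-0.016 to 1.26). In endothelial-like cells it had 86.9 (Sham, 45 UMIs) and 61.0 CPM (TBI, 66 UMIs) and a log2 ratio of -0.52 (-1.08 to 0.070).

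Ifih1 (ENSMUSG00000026896, chromosome 2, 62595798 to 62646255) encodes MDA5, a sensor of long double-stranded RNA, and Zbp1 (ENSMUSG00000027514, chromosome 2, 173206612 to 173218923) a sensor of Z-form nucleic acid that can start cell death. Oas1a (ENSMUSG00000052776, chromosome 5, 120896256 to 120907521) makes the 2′-5′ oligoadenylates that activate RNase L, and Oasl2 (ENSMUSG00000029561, chromosome 5, 114896936 to 114912234) is a related protein. Monocyte-like cells had the highest Zbp1 in both libraries, 198 (Sham) and 249 CPM (TBI), while endothelial-like cells had 9.66 (Sham) and 16.6 CPM (TBI). Oas1a had 113 (Sham) and 118 CPM (TBI) in macrophage-like cells, 79.3 (Sham) and 173 CPM (TBI) in monocyte-like cells, 80.0 (Sham) and 36.3 CPM (TBI) in proliferating-like cells and 46.6 (Sham) and 51.5 CPM (TBI) in dendritic-like cells. T-like cells had 42.8 (Sham) and 36.3 CPM (TBI), and endothelial-like cells 3.86 (Sham) and 4.62 CPM (TBI). Oasl2 spread further, with 173 (Sham) and 178 CPM (TBI) in monocyte-like cells and 172 (Sham) and 140.2 CPM (TBI) in an unnamed cluster led by Snhg11. In macrophage-like cells the log2 ratios of the 4 genes lay between 0.053 and 0.44. The highest of these was Ifih1, with 37.1 (Sham, 56 UMIs) and 50.6 CPM (TBI, 178 UMIs) and a log2 ratio of 0.44 (0.0078 to 0.91). Zbp1 was higher in TBI in T-like cells, where the 3 IFIT genes were lower, with 73.1 (Sham, 41 UMIs) and 108 CPM (TBI, 92 UMIs) and a log2 ratio of 0.55 (0.014 to 1.13). In NK-like cells Zbp1 had 10 UMIs in Sham and 28 in TBI, a log2 ratio of 1.57.

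The PYHIN genes lie together on chromosome 1 and encode interferon-inducible proteins that bind DNA in the nucleus or cytoplasm. Ifi203 (ENSMUSG00000039997, chromosome 1, 173920407 to 173942672) was among the more abundant members in most leukocytes. In Sham it had 146 CPM in macrophage-like and 315 CPM in T-like cells, and it reached 348 CPM in endothelial-like cells. It was among the members whose direction differed between classes. Its level was lower in TBI in T-like cells, with 315 (Sham, 177 UMIs) and 237 CPM (TBI, 202 UMIs) and a log2 ratio of -0.42 (-0.71 to -0.12), and in endothelial-like cells, with 348 (Sham, 180 UMIs) and 275 CPM (TBI, 297 UMIs) and a log2 ratio of -0.34 (-0.61 to -0.065). The endothelial-like class has 2 clusters, led by Gpihbp1 and Vwf. Taken apart, both had Ifi203 intervals that include 0, at -0.18 (-0.47 to 0.12) and -0.45 (-1.21 to 0.41). In macrophage-like cells Ifi203 was slightly higher, with 146 (Sham, 221 UMIs) and 172 CPM (TBI, 603 UMIs) and a log2 ratio of 0.23 (0.0036 to 0.46). Ifi204 (ENSMUSG00000073489, chromosome 1, 173747293 to 173766943) was a gene of monocyte-like (159 and 240.1 CPM) and macrophage-like cells (89.5 and 95.3 CPM), and it was higher in TBI in dendritic-like cells, with 11.8 (Sham, 17 UMIs) and 29.3 CPM (TBI, 50 UMIs) and a log2 ratio of 1.28 (0.49 to 2.20). Ifi213 (ENSMUSG00000073491, chromosome 1, 173566283 to 173599274) was low in all 16 classes, at most 75.6 CPM. Reads that match several close copies equally are uncertain for these genes, and likewise for Oas1a, Gbp, Slfn8, Trim30a, Phf11d and Ifit3.

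Rsad2 (ENSMUSG00000020641, chromosome 12, 26442746 to 26456452) encodes viperin, an enzyme that turns CTP into a chain terminator of viral RNA synthesis, and its neighbour Cmpk2 (ENSMUSG00000020638, chromosome 12, 26469204 to 26479837) a nucleotide kinase of mitochondria. Endothelial-like cells had the highest Rsad2 in both libraries, with 265 (Sham) and 245 CPM (TBI), and gave 51.1% of its Sham UMIs (45.0 to 57.2) and 45.1% of its TBI UMIs (41.0 to 49.2). The interval of the endothelial-like log2 ratio included 0, at -0.11 (-0.41 to 0.20). Within the class the Gpihbp1-led cluster (200 Sham and 315 TBI cells) carried the gene, with 342 (Sham) and 373 CPM (TBI). Its log2 ratio was 0.12 (-0.18 to 0.44). The Vwf-led cluster (58 Sham and 148 TBI cells) had 8.33 (Sham, 1 UMI) and 7.90 CPM (TBI, 3 UMIs). In macrophage-like cells Rsad2 had the largest ratio of all 36 genes, from a low base, with 23.9 (Sham, 36 UMIs) and 57.2 CPM (TBI, 201 UMIs) and a log2 ratio of 1.24 (0.74 to 1.82). Its size depended on how cells were clustered and kept: it was 0.47 with the interferon genes among the variable genes and 2.52 without the hemoglobin limit. Cmpk2 in the same cells had 19.2 (Sham, 29 UMIs) and 29.0 CPM (TBI, 102 UMIs) and a log2 ratio of 0.58 (-0.013 to 1.24), an interval that includes 0. Bst2 (ENSMUSG00000046718, chromosome 8, 71534255 to 71537456), which tethers virus particles to the membrane, stood out in plasmacytoid dendritic-like cells, a class with only 20 Sham and 43 TBI cells, with 5077 (Sham) and 4915 CPM (TBI). Bst2 is a known surface marker of that cell type. Macrophage-like cells had 791 (Sham) and 773 CPM (TBI), with a log2 ratio of -0.033 (-0.13 to 0.066). Ly6e (ENSMUSG00000022587, chromosome 15, 74955051 to 74959905), a lipid-anchored surface protein that hinders coronavirus entry, was the most abundant member, with 16991 and 26790 UMIs in the libraries. Its level ranged from 52.2 CPM in choroid plexus-like to 4148 CPM in Sema3g-led cells of Sham, and in macrophage-like cells it was lower in TBI by a small amount, with 2335 (Sham) and 2169 CPM (TBI) and a log2 ratio of -0.11 (-0.16 to -0.049). Rtp4 (ENSMUSG00000033355, chromosome 16, 23520291 to 23614222), a receptor chaperone with antiviral activity, was highest in macrophage-like cells in both libraries, with 146 (Sham, 220 UMIs) and 181 CPM (TBI, 635 UMIs) and a log2 ratio of 0.31 (0.086 to 0.54).

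Ifi27l2a (ENSMUSG00000079017, chromosome 12, 103442167 to 103443680) encodes a small membrane protein and varied strongly between classes. It reached 1966 (Sham) and 2583 CPM (TBI) in monocyte-like and 1349 (Sham) and 1319.5 CPM (TBI) in macrophage-like cells, but only 7.06 (Sham) and 11.02 CPM (TBI) in ILC2-like cells, a lymphoid class. Between the libraries it was higher in TBI in B-like cells, with 768 (Sham, 861 UMIs) and 955 CPM (TBI, 765 UMIs) and a log2 ratio of 0.31 (0.17 to 0.46). It was lower in dendritic-like cells, with 768 (Sham, 1105 UMIs) and 611 CPM (TBI, 1043 UMIs) and a log2 ratio of -0.33 (-0.45 to -0.21), and in T-like cells, with 1107 (Sham, 621 UMIs) and 780.1 CPM (TBI, 666 UMIs) and a log2 ratio of -0.50 (-0.66 to -0.34), although the T-like ratio was 0.021 without the hemoglobin limit. In macrophage-like cells its ratio was -0.032 (-0.11 to 0.045). Ifi35 (ENSMUSG00000010358, chromosome 11, 101448407 to 101458698) was the most even member, between 63.8 and 149 CPM across the 8 large classes. Ifi44 (ENSMUSG00000028037, chromosome 3, 151730922 to 151749960) was the rarest, with 51 and 142 UMIs in all, and endothelial-like cells held 27 and 72 of them. Xaf1 (ENSMUSG00000040483, chromosome 11, 72301629 to 72313733), a partner of the apoptosis inhibitor XIAP, was higher in TBI in macrophage-like cells, with 50.4 (Sham, 76 UMIs) and 73.7 CPM (TBI, 259 UMIs) and a log2 ratio of 0.54 (0.17 to 0.94). It was lower in T-like cells, with 73.1 (Sham, 41 UMIs) and 37.5 CPM (TBI, 32 UMIs) and a log2 ratio of -0.96 (-1.68 to -0.26).

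The guanylate-binding proteins and the immunity-related GTPases coat and break the vacuoles of intracellular microbes, and interferon gamma induces them strongly. The 3 Gbp genes lie together on chromosome 3, as Gbp7 (ENSMUSG00000040253, chromosome 3, 142530342 to 142550149), Gbp3 (ENSMUSG00000028268, chromosome 3, 142560026 to 142573209) and Gbp2 (ENSMUSG00000028270, chromosome 3, 142620602 to 142638008). The others are Igtp (ENSMUSG00000078853, chromosome 11, 58199556 to 58207591), Irgm1 (ENSMUSG00000046879, chromosome 11, 48861968 to 48871683) and Iigp1 (ENSMUSG00000054072, chromosome 18, 60376027 to 60392634). Iigp1 was highest in Sema3g-led cells in both libraries, with 241 (Sham) and 264 CPM (TBI). Endothelial-like cells came next, with 191 (Sham) and 217 CPM (TBI) and a log2 ratio of 0.18 (-0.16 to 0.54). In macrophage-like cells it had 49.0 (Sham) and 90.2 CPM (TBI), with intervals of 38.5 to 61.6 and 80.5 to 101 CPM that do not overlap, and a log2 ratio of 0.87 (0.51 to 1.26). Dendritic-like cells had 2.78 (Sham) and 24.0 CPM (TBI), but 75.6% of the 41 TBI UMIs came from 3 cells. Those 3 cells were not predicted doublets and carried 7 of 13 dendritic markers. Igtp was higher in TBI in macrophage-like cells, with 37.1 (Sham, 56 UMIs) and 56.9 CPM (TBI, 200 UMIs) and a log2 ratio of 0.61 (0.18 to 1.07), and in dendritic-like cells, with 16.0 (Sham, 23 UMIs) and 42.8 CPM (TBI, 73 UMIs) and a log2 ratio of 1.40 (0.73 to 2.16). Irgm1, a regulator that keeps other family members off the cell's own membranes, was higher in 3 large leukocyte classes. It was higher in B-like cells, with 33.0 (Sham, 37 UMIs) and 53.7 CPM (TBI, 43 UMIs) and a log2 ratio of 0.70 (0.034 to 1.38), in dendritic-like cells, with 56.3 (Sham, 81 UMIs) and 83.8 CPM (TBI, 143 UMIs) and a log2 ratio of 0.57 (0.17 to 0.99), and in T-like cells, with 41.0 (Sham, 23 UMIs) and 71.5 CPM (TBI, 61 UMIs) and a log2 ratio of 0.78 (0.088 to 1.56). In macrophage-like cells the intervals of the 3 Gbp genes included 0, with ratios of 0.19 (-0.13 to 0.53) for Gbp2, -0.023 (-0.42 to 0.40) for Gbp3 and 0.29 (-0.022 to 0.63) for Gbp7. Fibroblast-like cells had lower Gbp2 in TBI, with 149.6 (Sham, 40 UMIs) and 74.9 CPM (TBI, 125 UMIs) and a log2 ratio of -1.01 (-1.52 to -0.45), and lower Gbp7, with 105 (Sham, 28 UMIs) and 47.9 CPM (TBI, 80 UMIs) and a log2 ratio of -1.14 (-1.76 to -0.45), and 3 of the 66 Sham cells held 47.5% and 53.6% of those Sham UMIs.

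Sp100 (ENSMUSG00000026222, chromosome 1, 85649988 to 85709998) and Sp110 (ENSMUSG00000070034, chromosome 1, 85576899 to 85598817) encode proteins of nuclear bodies and were high in lymphocytes here. Sp100 had 449 (Sham) and 472 CPM (TBI) in B-like and 353 (Sham) and 434 CPM (TBI) in NK-like cells, and Sp110 171 (Sham) and 152 CPM (TBI) in NK-like cells. Slfn5 (ENSMUSG00000054404, chromosome 11, 82951349 to 82964840), a Schlafen protein, was highest in endothelial-like cells in both libraries, with 483 (Sham) and 436 CPM (TBI), while Slfn8 (ENSMUSG00000035208, chromosome 11, 83002158 to 83020810) was near the floor in them, with 1.93 (Sham) and 3.70 CPM (TBI), and spread over leukocytes. Phf11d (ENSMUSG00000068245, chromosome 14, 59347407 to 59365470), with a PHD finger, was higher in TBI in macrophage-like cells, with 46.4 (Sham, 70 UMIs) and 68.3 CPM (TBI, 240 UMIs) and a log2 ratio of 0.55 (0.17 to 0.96), and in endothelial-like cells, with 61.8 (Sham, 32 UMIs) and 95.3 CPM (TBI, 103 UMIs) and a log2 ratio of 0.61 (0.039 to 1.24). Parp14 (ENSMUSG00000034422, chromosome 16, 35832874 to 35871544), an ADP-ribosyltransferase, was also higher in TBI in macrophage-like cells, with 84.8 (Sham, 128 UMIs) and 129.7 CPM (TBI, 456 UMIs) and a log2 ratio of 0.61 (0.33 to 0.91). Slfn8 and Sp110 had small ratios there that were above 0, of 0.44 (0.034 to 0.87) and 0.32 (0.0048 to 0.65). Sp100, Slfn5, Trim30a (ENSMUSG00000030921, chromosome 7, 104409025 to 104465193), a TRIM protein, and Rnf213 (ENSMUSG00000070327, chromosome 11, 119393100 to 119487418), a very large ubiquitin ligase, had intervals that include 0 in macrophage-like cells, with ratios between -0.12 and 0.20. Slfn5 was higher in TBI in dendritic-like cells, with 106 (Sham, 153 UMIs) and 146 CPM (TBI, 249 UMIs) and a log2 ratio of 0.45 (0.16 to 0.76), and Trim30a in B-like cells, with 86.5 (Sham, 97 UMIs) and 119 CPM (TBI, 95 UMIs) and a log2 ratio of 0.46 (0.032 to 0.88).

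Counted together, the members were more often higher in the TBI library in macrophage-like cells. All 36 genes reached 30 UMIs over both libraries there, and 31 had a ratio above 0, with a median log2 ratio of 0.31 against 0.018 over all 8929 genes with as many UMIs. At least 1.5-fold higher in TBI were 7 of 36 (19.4%), against 6.16% of all genes: Ifit2, Ifit3, Isg15, Rsad2, Igtp, Iigp1 and Parp14. None was 1.5-fold lower, against 3.7% of all genes. The interval lay above 0 for 16 genes and below 0 for 1, Ly6e, against 5.91% and 4.69% of all genes. Because cells of 1 class share a library, the genes are not independent of each other, and the count describes these 2 libraries. Median depth differed between them, at 2205 UMIs per macrophage-like cell in Sham and 3877 in TBI. It differed more between the 3 clusters of the class, which are described below. Medians in Sham and TBI were 4405 and 4802 UMIs in Folr2-led, 7385 and 6127 in Slamf9-led and 824 and 965.5 in Hpgds-led cells. Giving every cell the same weight took the median log2 ratio to 0.43 and the number of 1.5-fold higher members to 13. Weighting the clusters of the class equally gave 12 such members and dropping the hemoglobin limit 13. The share of all genes past 1.5-fold at these settings is not given here. These larger counts are therefore not shown to be particular to the members. Other choices gave smaller values. The median was lower without the 5% of cells richest in members, as given below. The ratios of Rsad2 and Isg15 were smaller with the interferon genes among the variable genes, as given above.

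**Figure D2:**
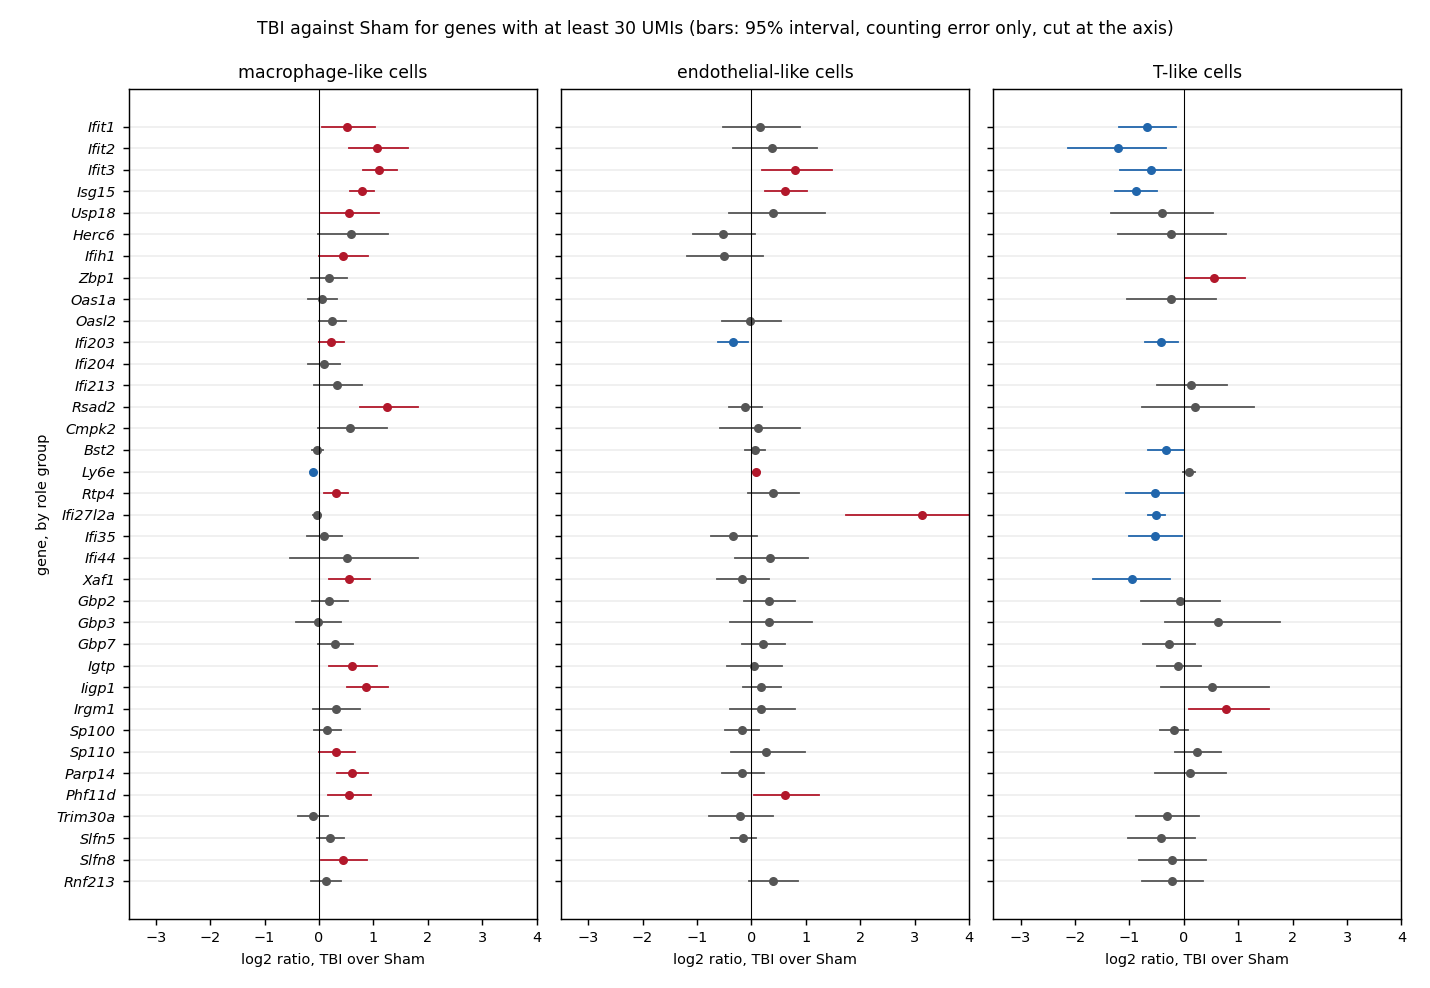
Log2 ratio of TBI over Sham for each gene with at least 30 UMIs in macrophage-like, endothelial-like and T-like cells. Points are ratios and bars 95% intervals for counting error (cut at the axis for Ifi27l2a in endothelial-like cells), red where the interval lies above 0 and blue where it lies below 0. Rsad2, Ifit3 and Ifit2 are farthest right in macrophage-like cells, while Ifit2, Xaf1 and Isg15 are farthest left in T-like cells.

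The class is made of 3 clusters in unequal shares of the libraries, and the median was above 0 in each. In the Folr2-led cluster (119 Sham and 316 TBI cells), which carries border macrophage genes, the median was 0.34 over 35 genes with at least 30 UMIs. The Slamf9-led cluster (105 and 263 cells), with Cx3cr1 and Fcgr4 among its leading genes, gave 0.22 over 35 genes. In the Hpgds-led cluster (131 and 196 cells) it was 0.21 over 16 genes. Ifit3 had 57.5 and 158 CPM (34 and 262 UMIs) and a log2 ratio of 1.44 (0.94 to 2.01) in the Folr2-led cells. In the Slamf9-led cells it had 82.3 and 142 CPM (64 and 230 UMIs) and a log2 ratio of 0.78 (0.38 to 1.21). Bst2 split the clusters, since it was lower in TBI in Folr2-led cells, with 1108 and 851 CPM (655 and 1414 UMIs) and a log2 ratio of -0.38 (-0.52 to -0.25), and higher in Slamf9-led cells, with 551 and 696 CPM (428 and 1126 UMIs) and a log2 ratio of 0.34 (0.18 to 0.50). Ly6e split them too, since it was lower in TBI in Folr2-led cells, at -0.25 (-0.33 to -0.17), and in Slamf9-led cells, at -0.12 (-0.21 to -0.023). In Hpgds-led cells Ly6e was higher, with 1989 and 2383 CPM (280 and 560 UMIs) and a log2 ratio of 0.26 (0.051 to 0.47). Other genes differed in size between Folr2-led and Slamf9-led cells. Slfn8 was at -0.030 (-0.61 to 0.61) and 0.84 (0.22 to 1.54), and Cmpk2 at -0.11 (-0.96 to 0.89) and 1.09 (0.22 to 2.18). Ifit1 went the other way, at 0.92 (0.17 to 1.82) and 0.19 (-0.45 to 0.89). The differences between the clusters were not tested.

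The other 7 large classes differed in size and in direction. Dendritic-like cells had a median of 0.18 over 35 genes, with 7 at least 1.5-fold higher (20%, against 6.82% of all genes) and 0 lower (all genes 4%). Endothelial-like cells had a median of 0.15 over 31 genes, with 4 higher (12.9%, all genes 8.37%) and 0 lower (all genes 6.29%). T-like cells were the class with the most negative median, -0.24 over 30 genes, with 5 at least 1.5-fold lower (16.7%, all genes 7.28%) and 2 higher (6.67%, all genes 7.39%). The lower ones were Ifit1, Ifit2, Ifit3, Isg15 and Xaf1, and the higher ones Gbp3 and Irgm1. Fewer members were 1.5-fold lower without the 5% of cells richest in members, as given in the last section. Intervals in T-like cells lay below 0 for 10 members, Bst2, Rtp4, Ifi35, Ifi203 and Ifi27l2a besides those 5, and above 0 for 2, Zbp1 and Irgm1, against 4.45% and 5.24% of all genes. NK-like cells gave 0.30 over 19 genes, with 4 higher (21.1%, all genes 6.39%) and 0 lower (all genes 9.29%). The higher ones were Ifit3, Isg15, Zbp1 and Ifi27l2a. For all but Zbp1, most TBI UMIs lay in 3 cells. Predicted doublets were 2 of those 3 cells for Ifi27l2a and for Isg15, and 1 for Ifit3. With predicted doublets removed fewer members were higher in NK-like cells, as given in the last section. B-like cells were near 0, at 0.078 over 22 genes, with 3 higher (13.6%, all genes 6.32%) and 0 lower (all genes 5.96%). In ILC2-like cells only 14 genes reached 30 UMIs, with a median of -0.026, 1 higher (all genes 7.2%) and 1 lower (all genes 7.61%). Immature B-like cells had 9 such genes, a median of -0.0092, 2 higher (all genes 9.9%) and 0 lower (all genes 7.43%). In these last 3 classes the shares of members rest on 1 to 3 genes each.

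**Figure D3:**
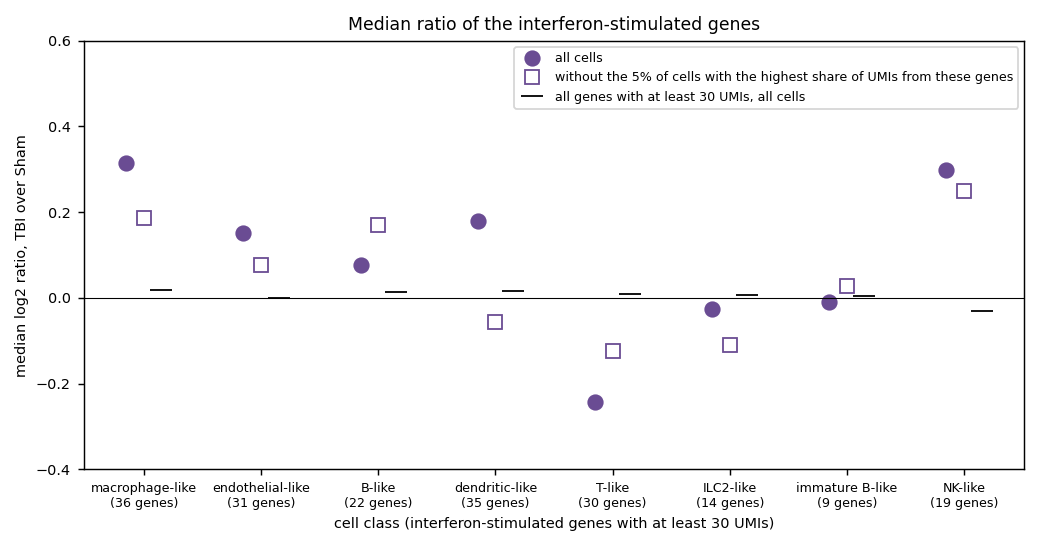
Median log2 ratio of TBI over Sham over the interferon-stimulated genes with at least 30 UMIs in each of the 8 large classes. Filled circles use all cells, open squares leave out the 5% of cells of each class and library with the highest share of UMIs from these genes, and dashes give the median over all genes. The dendritic-like median goes from 0.18 to -0.057 and the T-like one from -0.24 to -0.12.

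Much of each sum came from few cells. Leaving aside the 3 most abundant members, Ly6e, Ifi27l2a and Bst2, the 5% of macrophage-like cells with the highest share of UMIs from the other 33 genes held 25.3% of those UMIs in Sham (18 cells) and 34.2% in TBI (39 cells). The TBI cells among them carried a median of 19 of these genes and the Sham cells 10, against medians of 5 and 3 over all macrophage-like cells. Since the cells were picked by UMIs of these same genes, the gap to the class medians follows from the choice. The picked cells had median depths of 2343 UMIs in TBI and 1636 in Sham, and the numbers of genes were not matched for depth. Without the richest 5% of cells the macrophage-like median went from 0.31 to 0.19, the T-like median from -0.24 to -0.12 and the dendritic-like one from 0.18 to -0.057, where it changed sign. These cells were left out after seeing the data. The summed level of the 33 genes in macrophage-like cells was 2266 CPM in Sham and 2945 in TBI with all cells, and 1770 and 2028 CPM without them. In T-like cells the same 5% held 31.5% in Sham (8 cells) and 21.4% in TBI (12 cells), and in B-like cells 19.2% and 15.4%.

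Concentration in few cells was seen for Ifit1, Ifit2, Ifit3, Isg15 and Rsad2, and this group of 5 was chosen after its values had been seen. In macrophage-like cells 3 cells held 69.4% of Rsad2 UMIs in Sham and 43.8% in TBI, 58.3% and 40.7% of Ifit2, but only 11.7% and 6.80% of Parp14. Cells with UMIs of 3 or more of the 5 genes numbered 13 of 355 in Sham (3.66%, 1.96 to 6.18) and 59 of 775 in TBI (7.61%, 5.85 to 9.71). They held 61.2% and 77.0% of the UMIs of the 5 genes in that class. This is a range and not a cell type: 24 and 62 macrophage-like cells had exactly 2 of the genes, and 7 and 30 exactly 3. With cells of at least 1000 UMIs thinned to that depth, 3 of 256 Sham and 16 of 656 TBI cells had 3 or more (1.17% and 2.44% of the thinned cells). The difference was not tested. Endothelial-like cells had 4.26% (2.15 to 7.50) in Sham and 7.99% (5.69 to 10.8) in TBI. In dendritic-like cells the share was 9.88% in Sham and 6.07% in TBI, and in T-like cells 5.73% and 4.85%, each pair with overlapping intervals. No choroid plexus-like cell of 59 in Sham or 133 in TBI had 3 of the genes.

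**Figure D4:**
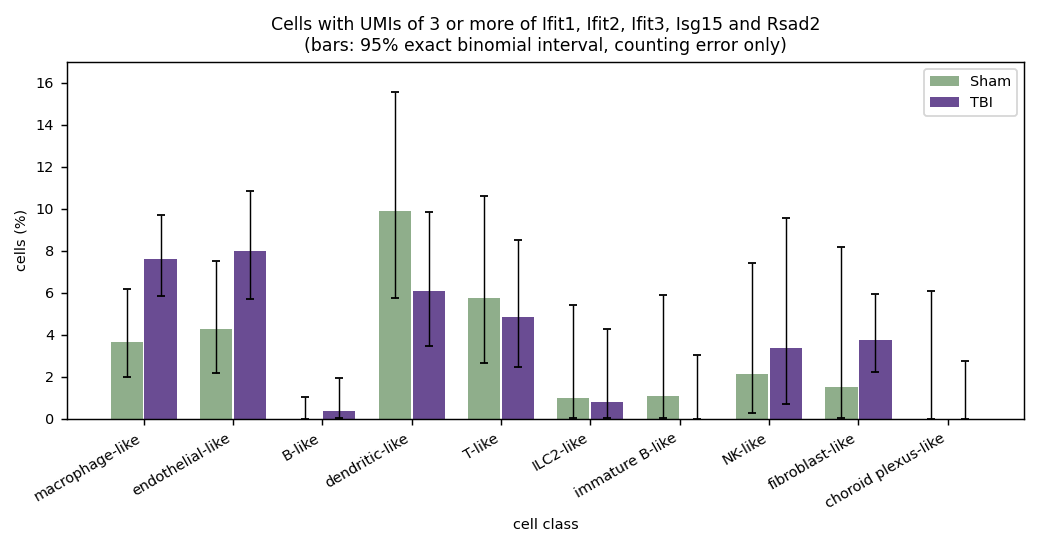
Share of cells (%) with UMIs of 3 or more of Ifit1, Ifit2, Ifit3, Isg15 and Rsad2 in 10 classes, Sham in green and TBI in purple, with exact binomial 95% intervals for counting error and no thinning to equal depth. The intervals of Sham and TBI overlap in every class drawn, least in macrophage-like cells (3.66% and 7.61%).

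The share of macrophage-like cells with any UMI of Ifit3 was 10.1% in Sham and 19.2% in TBI, and at 1000 UMIs per cell 5.47% (3.02 to 9.01) and 9.15% (7.05 to 11.6), with 99 and 119 shallower cells left out. Choroid plexus-like cells, the class with the lowest mean of these genes, are given beside them for scale. Because the class was picked by that mean, its low shares are not an independent measure of free RNA. In choroid plexus-like cells the thinned Ifit3 shares were 1.89% and 0% of 53 and 116 cells (median depths before thinning 2975 and 3536 UMIs). For Isg15 the macrophage-like shares were 22.0% and 26.2% before and 8.98% and 11.9% after thinning, with overlapping intervals, against 0% and 0.862% in choroid plexus-like cells. These intervals count the cells of 1 library per condition and do not measure the spread between mice. Whether the number of expressing cells differs between the conditions was not tested.

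Some of the largest ratios rest on a few cells that also held markers of another type. In endothelial-like cells Ifi27l2a had 5.80 (Sham, 3 UMIs) and 59.2 CPM (TBI, 64 UMIs) and a log2 ratio of 3.14 (1.74 to 5.67), the largest ratio among members with at least 30 UMIs in a large class. Of the TBI UMIs, 40 lay in 3 cells, all 3 predicted doublets, in which B cell markers (11 of 13 detected) summed to 10086 CPM against 137 CPM in the other endothelial-like cells. With predicted doublets removed the ratio was 1.41. In NK-like cells Ifi27l2a had 92.5 (Sham, 32 UMIs) and 427 CPM (TBI, 135 UMIs) and a log2 ratio of 2.19 (1.64 to 2.81), and 3 TBI cells held 132 of the 135 UMIs. In those 3 cells, 2 of them predicted doublets, dendritic markers (8 of 13 detected) summed to 1825 CPM against 107 CPM in the rest, and B cell markers (8 of 13 detected) to 1539 against 21.4 CPM. The ratio was 0.61 with predicted doublets removed, and -2.34 at the coarser clustering. Isg15 in NK-like cells, with 83.8 (Sham, 29 UMIs) and 234 CPM (TBI, 74 UMIs) and a log2 ratio of 1.47 (0.85 to 2.15), was concentrated as well, 89.2% of its TBI UMIs lying in 3 cells. Ifit3, with 26.0 (Sham, 9 UMIs) and 94.9 CPM (TBI, 30 UMIs) and a log2 ratio of 1.81 (0.76 to 3.13), had 96.7% in 3 cells. Thinned to 1000 UMIs per cell, these 2 ratios were -0.38 and -0.30. Few cells held the genes then: 6.82% of 88 Sham and 3.57% of 84 TBI cells for Isg15, and 2.27% and 2.38% for Ifit3. In the 3 Sham T-like cells with most Isg15, 0 of them predicted doublets, T cell markers (14 of 14 detected) summed to 11386 CPM. The other Sham T-like cells had 7396 CPM. Monocyte markers (2 of 10) summed to 3366 CPM against 2007, dendritic markers (1 of 13) to 429.6 against 87.7 and macrophage markers (3 of 20) to 215 against 64.0, while B cell markers were at 0 in those 3 cells. The part of mixed cells in the other ratios was not tested.

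Small classes gave high levels that also rested on few cells. Schwann-like cells (35 and 46 cells) had the highest Isg15 of all compared classes in Sham, with 745 (Sham) and 317 CPM (TBI), but 3 cells held 96.3% and 94.1% of the UMIs. Those 3 Sham cells carried 9 of 13 Schwann markers, at 17071 CPM against 43787 CPM in the rest, with dendritic, B, T and endothelial markers at 0 and 1 of 20 macrophage markers. Ifit3 in the same class had 303 (Sham) and 271 CPM (TBI), from 8 and 11 cells. Monocyte-like cells (38 and 46 cells) had 401 (Sham) and 302 CPM (TBI) of Isg15 and were higher in TBI for Sp100, with 223 (Sham, 45 UMIs) and 409 CPM (TBI, 92 UMIs) and a log2 ratio of 0.87 (0.35 to 1.42), for Slfn5, with 183 (Sham, 37 UMIs) and 316 CPM (TBI, 71 UMIs) and a log2 ratio of 0.78 (0.19 to 1.40), and for Ifi203, with 129 (Sham, 26 UMIs) and 253 CPM (TBI, 57 UMIs) and a log2 ratio of 0.96 (0.28 to 1.71). In the same cells Rsad2 was lower, with 159 (Sham, 32 UMIs) and 66.7 CPM (TBI, 15 UMIs) and a log2 ratio of -1.22 (-2.24 to -0.32), from 3 and 5 cells. Proliferating-like cells (31 and 48 cells) had lower Isg15 in TBI, with 235 (Sham, 53 UMIs) and 36.3 CPM (TBI, 13 UMIs) and a log2 ratio of -2.66 (-3.70 to -1.80), and lower Ifi27l2a, with 1519 (Sham, 342 UMIs) and 671 CPM (TBI, 240 UMIs) and a log2 ratio of -1.18 (-1.42 to -0.94). Of the 78 Sham UMIs of Isg15, Rsad2 and the IFIT genes in that class, 56.4% lay in 1 cell. The Snhg11-led cluster (51 and 304 cells) had lower Rnf213, with 247 (Sham, 23 UMIs) and 85.5 CPM (TBI, 50 UMIs) and a log2 ratio of -1.55 (-2.27 to -0.75), and fibroblast-like cells lower Slfn5, with 112 (Sham, 30 UMIs) and 47.9 CPM (TBI, 80 UMIs) and a log2 ratio of -1.24 (-1.85 to -0.57).

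Over the whole filtered libraries, where cells of all classes are summed, 19 of the 36 genes were higher in TBI with an interval above 0, 5 were lower with an interval below 0 (all genes 28.5% and 13.1%), and 12 had an interval that includes 0. The highest were Iigp1, with 29.9 (Sham) and 53.2 CPM (TBI) and a log2 ratio of 0.83 (0.62 to 1.05), and Ifit3, with 43.7 (Sham) and 77.0 CPM (TBI) and a log2 ratio of 0.82 (0.64 to 1.00). The lowest was Sp100, with 221 (Sham) and 174 CPM (TBI) and a log2 ratio of -0.34 (-0.43 to -0.26). The libraries differ in class shares: B-like cells made up 17.7% of Sham and 7.55% of TBI cells, and fibroblast-like cells 3.23% and 12.0%. A sum over a library depends on the class shares and on the level in each class. The TBI class levels were therefore also weighted by the share of UMIs each class had in Sham, a step chosen after seeing the data. All 5 lower genes then came within 0.1 of 0 on the log2 scale: Sp100 went to 0.048, Ifi203 to -0.029, Ifi27l2a to -0.082, Sp110 to 0.080 and Ly6e to 0.0027. Of the 19 higher genes 16 stayed above 0.1, among them Ifit3 at 0.66, Iigp1 at 0.60 and Isg15 at 0.32, while Oasl2 went from 0.39 to 0.084. The weighting was made for the 36 genes only. The counts after it therefore have no share of all genes beside them and are not shown to be particular to these genes. Before the weighting, the share of the 36 genes that were lower was near that of all genes. Why the library sums differ was not tested.

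**Figure D5:**
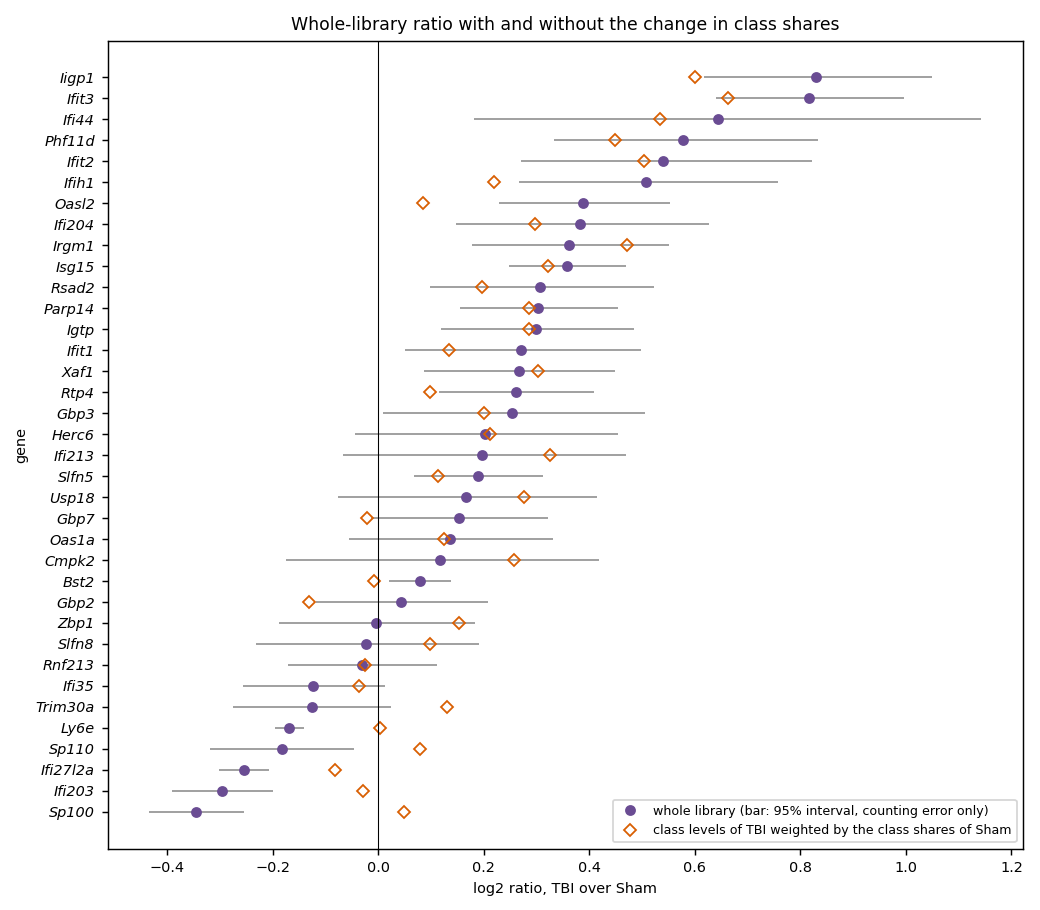
Whole-library log2 ratio of TBI over Sham for each of the 36 genes, ordered by value (filled circles, with 95% intervals for counting error), and the ratio with TBI class levels weighted by the share of UMIs of each class in Sham (open diamonds). The 5 genes with intervals below 0, from Ly6e down to Sp100, have diamonds between -0.082 and 0.080.

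The signal chain upstream of these genes was measured as well. Of 21 interferon genes only Ifng and Ifnz had any UMI, so the type I ligands cannot be traced here: Ifnz had 1 UMI in each library, and Ifng 48 and 89, 29 and 28 of them in NK-like cells and 19 and 57 in T-like cells. In NK-like cells Ifng had 83.8 (Sham) and 88.6 CPM (TBI) and a log2 ratio of 0.081 (-0.72 to 0.88), and in T-like cells it had 33.9 (Sham) and 66.8 CPM (TBI) and a log2 ratio of 0.95 (0.21 to 1.81), above 1.5-fold. All 15 receptor and transducer genes reached 30 UMIs in macrophage-like cells, with a median log2 ratio of 0.11, 2 at least 1.5-fold higher and 0 lower, against 6.16% and 3.7% of all genes. The higher ones were the feedback inhibitors Socs1, with 23.2 (Sham) and 36.1 CPM (TBI) and a log2 ratio of 0.62 (0.090 to 1.22), and Socs3, with 9.28 (Sham) and 18.8 CPM (TBI) and a log2 ratio of 0.98 (0.17 to 1.96). Irf7, the factor that amplifies type I interferon production, had 148 (Sham) and 217 CPM (TBI) and a log2 ratio of 0.55 (0.34 to 0.78). Ifnar2, a receptor chain, was lower, with 366 (Sham) and 302 CPM (TBI) and a log2 ratio of -0.28 (-0.43 to -0.13), while Ifnar1 had a ratio of -0.016, Stat2 0.30 and Irf9 0.11, all with intervals that include 0. Ifngr1, Ifngr2, Jak1, Jak2, Tyk2 and Irf8 also had intervals that include 0, and Irf1 had 84.2 (Sham) and 108 CPM (TBI) and a log2 ratio of 0.35 (0.060 to 0.66). Dendritic-like cells had 5 of the 15 genes higher (all genes 6.82%) and 0 lower (all genes 4%), with a median of 0.37. Irf7 was higher there too, at 0.91 (0.61 to 1.23), and in NK-like and monocyte-like cells, at 0.92 (0.27 to 1.62) and 0.87 (0.42 to 1.35). T-like cells had 0 of 14 such genes higher and 0 lower, with a median of -0.092 and Irf7 at -0.068 (-0.53 to 0.41).

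A list of other interferon-induced genes was counted the same way. Of 55 with a row, 52 reached 30 UMIs in macrophage-like cells, where the median log2 ratio was 0.17, 4 were at least 1.5-fold higher and 1 lower, beside the same 6.16% and 3.7% of all genes. Among those with at least 100 UMIs there, the 3 highest were Ifit3b, given above, Oas2, with 26.5 (Sham) and 42.4 CPM (TBI) and a log2 ratio of 0.66 (0.17 to 1.22), and Slfn1, with 23.9 (Sham) and 35.8 CPM (TBI) and a log2 ratio of 0.57 (0.043 to 1.16). The 3 lowest were Parp9, with 55.7 (Sham) and 49.2 CPM (TBI) and a log2 ratio of -0.18 (-0.56 to 0.22), Gbp9, with 24.5 (Sham) and 22.2 CPM (TBI) and a log2 ratio of -0.15 (-0.73 to 0.46), and Adar, with 36.4 (Sham) and 33.0 CPM (TBI) and a log2 ratio of -0.15 (-0.62 to 0.35), all with intervals that include 0. Dendritic-like cells had 11 of 45 such genes higher (all genes 6.82%) and 1 lower (all genes 4%), with a median of 0.12. In NK-like cells there were 10 of 21 such genes higher (all genes 6.39%) and 0 lower (all genes 9.29%), with a median of 0.49. The part of mixed cells in that count was not tested. For T-like cells the counts were 2 of 41 such genes higher (all genes 7.39%) and 1 lower (all genes 7.28%), with a median of -0.12.

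Members differed in how well they followed the common pattern over classes. Over the 32 class-by-library sums, which share libraries and depths, Rtp4 (r = 0.87), Parp14 (0.87) and Rnf213 (0.85) followed the mean of the other members most closely. Slfn8 (0.27) and Ifi27l2a (0.30) followed it least. Among 6267 genes outside the lists, the 10 with the most similar pattern were Atp2b1, Aph1a, H2-T23, Klf6, Sh3glb1, Tacc1, Arhgef2, Sptlc2, Tln1 and Elmo1, with r from 0.78 to 0.85. These correlations describe points that are not independent of each other.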

How the data were processed

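Single-cell RNA-seq libraries (10x 3′ chemistry) of pooled dorsal meninges were analysed from filtered matrices. The values are raw UMI counts per gene and cell, which the authors made with Cell Ranger (version 2.1.1 per the labels, 3.1.0 per the file headers, and another version in the study's methods) on mm10. No annotation release is named in those sources. The labels also name Seurat 3.9.9 and DESeq2 1.30.0, which were not used here. Cells with 150 to 5000 genes, at most 20% mitochondrial and at most 5% hemoglobin UMIs were kept. The counts of each cell were brought to a total of 10000 and log transformed. From these, 2000 variable genes, chosen without the members and the other interferon genes counted here, gave 20 principal components. Cells were grouped by Leiden clustering (20 neighbours, resolution 0.8, leidenalg 0.10.2, Python 3.11.15, scikit-learn 1.9.0). A cluster was named when at least 3 of the markers of a type were among its 50 leading genes. Predicted doublets, scored against simulated sums of cells, were left in (33 Sham and 114 TBI cells).

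UMIs were summed per class and library. Ratios took 0.5 added to each sum, with exact binomial 95% intervals, and levels exact Poisson intervals, all for counting error only. With 1 library per condition no test across samples was possible. A gene counts as higher or lower at 1.5-fold, with at least 30 UMIs over both libraries. All members are named. Of the other interferon-induced genes the 3 highest and 3 lowest ratios in macrophage-like cells with at least 100 UMIs are named, and of all other genes the 10 with the highest correlation with the members, among those with at least 500 UMIs. A gene of the signal list is not reported here. The members and lists were chosen with earlier results of these data known. Gene positions are those of GENCODE on GRCm38. The ratio script was tested on simulated data. Alternatives covered cell weights, doublets, resolution, clustering genes, scaling, thinning, the hemoglobin limit, UMI minimums and the fold.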

Additional observations from a re-analysis of the deposited data

Results flagged for a closer look

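For 9 members the log2 ratio of TBI over Sham had opposite signs in different large classes, with counting intervals that leave out 0 on both sides. The values given are the class ratios farthest apart, and the differences between classes were not tested, since each class has 1 library per condition. Ifit1 was higher in macrophage-like cells (0.52) and lower in T-like cells (-0.67), 1.19 apart. Ifit2 was higher in macrophage-like cells (1.06) and lower in T-like cells (-1.20), 2.27 apart. Ifit3 was higher in NK-like cells (1.81) and lower in T-like cells (-0.61), 2.42 apart. Isg15 was higher in NK-like cells (1.47) and lower in T-like cells (-0.88), 2.35 apart. Ifi203 was higher in macrophage-like cells (0.23) and lower in T-like cells (-0.42), 0.64 apart. Ly6e was higher in NK-like cells (0.23) and lower in macrophage-like cells (-0.11), 0.33 apart, although it was higher in the Hpgds-led macrophage-like cluster (0.26). Rtp4 was higher in macrophage-like cells (0.31) and lower in T-like cells (-0.54), 0.84 apart. Ifi27l2a was higher in endothelial-like cells (3.14) and lower in T-like cells (-0.50), 3.65 apart. Xaf1 was higher in macrophage-like cells (0.54) and lower in T-like cells (-0.96), 1.50 apart. T-like cells are the lower class for 8 of the 9 genes. The NK-like and endothelial-like values of Ifit3, Isg15 and Ifi27l2a rest on a few cells, as described above. The T-like side was concentrated too. There 9 of 157 Sham and 11 of 227 TBI cells held 83.1% and 69.9% of the UMIs of Ifit1, Ifit2, Ifit3, Isg15 and Rsad2. Under an alternative processing Ifit1 in macrophage-like cells reversed to -0.28 with cells thinned to 1000 UMIs, a value that rests on few cells. Ly6e in NK-like cells reversed to -0.10 at the coarser clustering and -0.068 without the hemoglobin limit. Ifi27l2a in T-like cells reversed to 0.021 without that limit, and Ifit3 in T-like cells to 0.34 without the 5% of cells richest in members.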

How the results depend on the processing

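No paired analysis was possible because each condition is 1 library. Most values kept their direction: 77 of the 97 alternative medians stayed within 0.1 (log2) of the reported one, 145 of 210 counts stayed within 1.5 times the reported count, and 13 single ratios reversed. Scaling by the median gene or leaving mitochondrial, ribosomal, hemoglobin and immunoglobulin genes out of the totals moved no median or count beyond these limits. Depth limits the small classes, where 3 counts are worth up to 46.5 CPM. The alternatives that left out the richest 5% of cells or used the Sham composition were added after seeing the data. The reported value stands in parentheses, and the causes were not tested. Shares of all genes past the fold are not given for the alternatives. A changed count of members is therefore not shown to be particular to these genes. The number of members measured at each alternative is not given either. Thinning the cells or raising the UMI minimum can leave fewer members measured, and lowering the minimum can add members. Counts and medians at those settings may cover other members than the reported ones, and a changed count there does not show that ratios changed.

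With every cell given the same weight, the median ratio was 0.43 (0.31) in macrophage-like cells, -0.013 (0.15) in endothelial-like cells, 0.21 (0.078) in B-like cells, 0.55 (0.18) in dendritic-like cells and 0.20 (0.30) in NK-like cells. The count of higher members was 13 (7) in macrophage-like cells, 2 (4) in endothelial-like cells, 17 (7) in dendritic-like cells, 4 (2) in T-like cells, 3 (1) in ILC2-like cells and 0 (2) in immature B-like cells. The count of lower members was 2 (0) in endothelial-like cells, 2 (0) in dendritic-like cells, 2 (5) in T-like cells, 3 (1) in ILC2-like cells and 2 (0) in NK-like cells. Without the 5% of cells richest in members, the median ratio was 0.19 (0.31) in macrophage-like cells, -0.057 (0.18) in dendritic-like cells and -0.12 (-0.24) in T-like cells. Higher members at this setting numbered 3 (7) in dendritic-like cells. Lower members at this setting numbered 1 (0) in macrophage-like cells, 1 (0) in endothelial-like cells, 1 (5) in T-like cells and 0 (1) in ILC2-like cells. The ratio reversed for Ifit3 in dendritic-like cells, -0.40 (0.68), Ifit3 in T-like cells, 0.34 (-0.61), Isg15 in NK-like cells, -0.065 (1.47) and Bst2 in T-like cells, 0.13 (-0.34). With the clusters of a class weighted equally, the median ratio was 0.26 (0.15) in endothelial-like cells. The number of 1.5-fold higher members was 12 (7) in macrophage-like cells. With cells thinned to 1000 UMIs, the median ratio was 0.078 (0.18) in dendritic-like cells, 0.10 (-0.026) in ILC2-like cells and -0.20 (-0.0092) in immature B-like cells. Members at least 1.5-fold higher numbered 0 (3) in B-like cells, 2 (7) in dendritic-like cells, 1 (2) in T-like cells, 0 (2) in immature B-like cells and 0 (4) in NK-like cells. Members lower by that fold numbered 2 (0) in endothelial-like cells, 1 (0) in dendritic-like cells and 0 (1) in ILC2-like cells. The ratio reversed for Ifit1 in macrophage-like cells, -0.28 (0.52), Ifit3 in NK-like cells, -0.30 (1.81) and Isg15 in NK-like cells, -0.38 (1.47). These thinned ratios rest on few cells, as given above. The thinned counts rest on smaller sums, in which fewer members can reach the UMI minimum. A lower count there is not shown to come from smaller ratios. At clustering resolution 1.6, the median ratio was -0.35 (-0.24) in T-like cells. The count of higher members was 2 (4) in endothelial-like cells. The count of lower members was 8 (5) in T-like cells. At clustering resolution 0.4, the median ratio was 0.14 (0.30) in NK-like cells. Higher members at this setting numbered 1 (4) in endothelial-like cells and 1 (2) in T-like cells. Lower members at this setting numbered 1 (0) in endothelial-like cells and 2 (0) in NK-like cells. The ratio reversed for Ly6e in NK-like cells, -0.10 (0.23) and Ifi27l2a in NK-like cells, -2.34 (2.19). Without the hemoglobin limit, the median ratio was 0.11 (-0.0092) in immature B-like cells and 0.18 (0.30) in NK-like cells. The number of 1.5-fold higher members was 13 (7) in macrophage-like cells and 4 (2) in T-like cells. The number of 1.5-fold lower members was 2 (5) in T-like cells, 4 (1) in ILC2-like cells and 1 (0) in NK-like cells. The ratio reversed for Ly6e in NK-like cells, -0.068 (0.23), Ifi27l2a in T-like cells, 0.021 (-0.50) and Ifi27l2a in NK-like cells, -2.31 (2.19). With a minimum of 100 UMIs per gene, the median ratio was -0.11 (-0.0092) in immature B-like cells. Members at least 1.5-fold higher numbered 0 (3) in B-like cells, 2 (7) in dendritic-like cells, 0 (2) in T-like cells, 0 (1) in ILC2-like cells, 0 (2) in immature B-like cells and 2 (4) in NK-like cells. Members lower by that fold numbered 3 (5) in T-like cells and 0 (1) in ILC2-like cells. This minimum leaves out members with fewer UMIs and changes no ratio, so the lower counts reflect which members were measured. With a minimum of 10 UMIs per gene, the median ratio was 0.52 (0.30) in NK-like cells. The count of higher members was 7 (3) in B-like cells, 3 (1) in ILC2-like cells and 12 (4) in NK-like cells. The count of lower members was 1 (0) in endothelial-like cells, 1 (0) in B-like cells, 3 (1) in ILC2-like cells and 3 (0) in immature B-like cells. With predicted doublets removed, the median ratio was 0.19 (0.30) in NK-like cells. Higher members at this setting numbered 2 (4) in NK-like cells. Lower members at this setting numbered 1 (0) in NK-like cells. With the interferon genes among the variable genes, the median ratio was 0.10 (0.30) in NK-like cells. The number of 1.5-fold higher members was 2 (1) in ILC2-like cells and 1 (2) in immature B-like cells. The number of 1.5-fold lower members was 3 (5) in T-like cells. The ratio reversed for Ifi27l2a in NK-like cells, -2.33 (2.19). At a fold of 2, members higher by that fold numbered 3 (7) in macrophage-like cells, 1 (4) in endothelial-like cells, 0 (3) in B-like cells, 4 (7) in dendritic-like cells, 0 (2) in T-like cells, 0 (1) in ILC2-like cells and 0 (2) in immature B-like cells. Members lower by that fold numbered 1 (5) in T-like cells and 0 (1) in ILC2-like cells.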
